A study of Gallus gallus with 3 samples.

Results

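The miR-30 family was measured in the leg muscle of 7-week-old chickens by the probes for gga-miR-30a-5p, gga-miR-30b, gga-miR-30c, gga-miR-30d and gga-miR-30e (without the species prefix from here on), which are 5 of the 542 chicken miRNAs on the array. They were chosen by name, as every probe for the 5′ arm of a miR-30 precursor, without use of their values. Earlier results of these data were known when they were chosen. Each of 3 two-colour arrays compared a pool of RNA from dwarf recessive White Rock chickens with a pool from normal recessive White Rock chickens. The dwarf strain carries a deletion in GHR, the growth hormone receptor gene, that takes away the end of its coding part with a stretch of the 3′ UTR. The tissue was the centre of the gastrocnemius, birds of both strains were fed under the same conditions, and each pool held RNA of 3 birds, so that 9 birds stood behind each strain. Cy5 labelled the dwarf pool and Cy3 the normal pool on arrays 1 and 3, with the reverse on array 2. Each strain had been bred as its own line, so an effect of the deletion and of any other difference between the lines cannot be told apart. In whole muscle, fewer cells of a type and less RNA per cell cannot be told apart either.

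A miRNA lowers the output of mRNAs that carry a match to its seed, the bases near its 5′ end, mostly in their 3′ UTRs. The members of the miR-30 family share a seed and differ toward the 3′ end, so they are taken to share many targets. In zebrafish embryos the family acts on smoothened, a component of hedgehog signalling, during early muscle development, and in mammals it is known for repressing CTGF, a matrix-associated growth factor, in the heart. The question here was whether the level of these miRNAs differed between dwarf and normal muscle.

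The target sequences listed with the probes are shown because the probes can be told apart only by their 3′ parts. Bases 2 to 8, the seed, are in capitals, and the last line is the opposite arm of the miR-30a precursor, which has another seed.
miR-30a-5p: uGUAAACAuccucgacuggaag
miR-30d: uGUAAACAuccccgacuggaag
miR-30e: uGUAAACAuccuugacugg
miR-30b: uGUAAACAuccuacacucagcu
miR-30c: uGUAAACAuccuacacucucagcu
miR-30a-3p: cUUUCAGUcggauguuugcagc

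All 5 members held the seed GUAAACA, and no other of the 542 miRNAs on the array did (5 of 542, 0.923%). With positions numbered from 1 at the 5′ base, and the base of miR-30a-5p given before that of the other member, miR-30d differs from miR-30a-5p by U12C, and miR-30e differs from it by C13U over the 19 bases they have in common. MiR-30b and miR-30c share their first 18 and their last 7 bases, and miR-30c is longer by 2 bases. Against miR-30a-5p, miR-30b had 7 differences over 22 bases. The GC content was 45.5% for miR-30a-5p, 40.9% for miR-30b, 41.7% for miR-30c, 50% for miR-30d and 42.1% for miR-30e. The arrays give no measure of how far a probe also reads its near relatives, so the values of miR-30a-5p, miR-30d and miR-30e, and those of miR-30b and miR-30c, may not be independent. In the RefSeq gene table of the assembly bGalGal1.mat.broiler.GRCg7b the family has 6 genes in 3 neighbouring pairs, MIR30B beside MIR30D, MIR30A beside MIR30C2 and MIR30E beside MIR30C1. The last pair lies within NFYC, which codes for a subunit of the transcription factor NF-Y. The probe for miR-30c cannot tell MIR30C1 from MIR30C2.

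Of the 5 members, miR-30a-5p, miR-30b, miR-30c and miR-30d were detected in both strains, and miR-30e was detected in neither. A miRNA was called detected in a strain when its signal, the background-subtracted and dye-balanced intensity averaged over 6 spots, was above 32 in the mean of the 3 pools, the limit the study also used, which is close to the noise in Cy3 (median absolute deviation of the miRNA spots about the background 12.8 to 35.9 before scaling). By this standard 85 of the 542 miRNAs were detected in dwarf and 74 in normal chickens. All 36 spot readings (6 spots, 2 dyes and 3 arrays) were above the brightest empty spot of the same array and dye for each of the 4 detected members, against 2 of 36 for miR-30e. No member spot was saturated (0 of 180 readings, the brightest of them at 12991).

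MiR-30e was not well above background in any pool. In array order, its dwarf signals were 12.2, 2.24 and 14.6 and its normal signals 5.43, 1.91 and 0.203, all under 32. Its median spot was close to the local background in each pool. No fold change is given for it. The call depended on the background: with the background taken from the empty spots, its mean normal signal was 54.8 in place of 2.51 and it counted as detected, while its mean dwarf signal was 11.5. The sequence listed for it had 19 bases. None of the 3 miRNAs listed with 19 bases, miR-30e itself included, was detected. Of those with 20 bases 10 of 56 were (17.9%), and of those with 22 bases 38 of 226 (16.8%). Whether the listed length had a part in its low signal was not tested.

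MiR-30b was the member with the clearest difference. In array order, the dwarf pools had signals of 358, 485 and 723 and the normal pools of 266, 246 and 324. Every dwarf pool lay above every normal pool, as for 13 of the 85 miRNAs tested (15.3%), while the reverse held for 0 of the 85. The means were 522 ± 185 and 279 ± 40.2 (SD, n = 3 pools). Within an array, the dwarf pool was 1.34, 1.97 and 2.23 times the normal pool. The lowest dwarf pool was 1.11 times the highest normal pool, a gap smaller than the SD of either strain. Signals leaned toward dwarf chickens in general. Over the 85 miRNAs tested, their median log2 difference was 0.18 (signals under 32 set to 32), against 0.048 for the ratios tested below. The signal folds given for each member are not corrected for this.

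MiR-30a-5p, which is nearest in sequence to miR-30d and miR-30e, had the higher signal in dwarf muscle on arrays 2 and 3 but not on array 1. Its signal was 290, 460 and 525 in the dwarf pools and 303, 196 and 240 in the normal pools of arrays 1, 2 and 3. The dwarf pool of array 1 fell below the normal pool of the same array, so the groups overlapped, although the means were 425 ± 121 and 246 ± 54.0 (SD, n = 3 pools). On arrays 2 and 3 the dwarf pool was 2.35 and 2.19 times the normal pool.

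MiR-30d had dwarf signals that lay close together. They were 1148, 1181 and 1171 on arrays 1, 2 and 3, with a mean of 1167 ± 17.4 (SD, n = 3 pools). The normal pools were at 1141, 809 and 805, with a mean of 918 ± 193 (SD, n = 3 pools). The groups did not overlap, as for 13 of the 85 miRNAs tested (15.3%). Still, the dwarf and the normal pool of array 1 differed by a factor of 1.01, less than the spread of the spots. The log2 ratio of array 1, given below, was -0.039, so the direction on that array depended on the measure. The whole difference lay on arrays 2 and 3, at 1.46 and 1.45 times.

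MiR-30c showed no difference of that size. Its signal was 7119, 5161 and 5405 in the dwarf pools and 6957, 4480 and 5288 in the normal pools of arrays 1, 2 and 3, with means of 5895 ± 1067 and 5575 ± 1263 (SD, n = 3 pools). The dwarf pool was higher on each array, by factors of 1.02, 1.15 and 1.02. The pools of array 1 were the highest in both strains, so the spread between arrays was larger than the spread between strains. Ordered by miR-30c, the dwarf and the normal pool of each array were neighbours. The factor between them was 1.15 on array 2. It was 1.02 on arrays 1 and 3, where they were not apart beyond the spots.

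**Figure D1:**
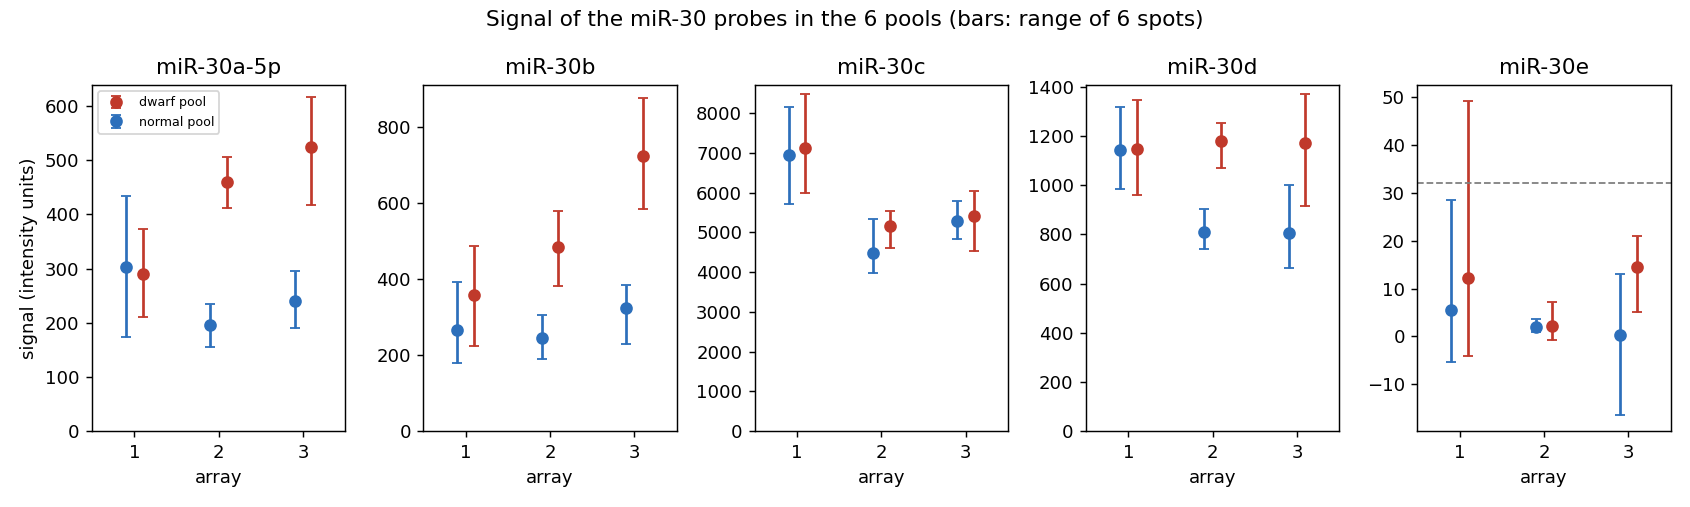
Signal (intensity units, y axis) of each miR-30 probe in the dwarf (red) and normal (blue) pool of arrays 1, 2 and 3 (x axis), with the mean as a point and the range of the 6 spots as a bar. The dashed line is the detection standard of 32, which all pools of miR-30e missed, and on array 1 the spot ranges of dwarf and normal pools overlap for every probe.

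The strains were compared on the log2 ratio of dwarf over normal, calculated for each array after the normexp background correction (offset 50) and loess, and tested against 0 by limma. After Benjamini-Hochberg adjustment, 0 of the 85 miRNAs tested (0%) had a p under 0.05, the 4 tested members included. At an unadjusted p under 0.05 there were 4 of 85, all higher in dwarf chickens (4.71%), and miR-30b was the only member among them. The methods' t-test paired by array likewise gave 0 after adjustment, and 4 at an unadjusted p under 0.05, with no member. The mean log2 ratios below were smaller than those of the signals for miR-30a-5p (0.55 against 0.77), miR-30b (0.61 against 0.85) and miR-30d (0.29 against 0.36). With an offset of 16 in place of 50 they were 0.57, 0.63 and 0.30, and the cause of the gap was not tested.

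MiR-30b had log2 ratios of 0.20, 0.76 and 0.86 on arrays 1, 2 and 3. The mean was 0.61, a fold of 1.52 (standard error 0.20, 95% interval 0.13 to 1.08, unadjusted p = 0.0198, adjusted p = 0.56 from limma), and its p was the third smallest of the 85. It was higher in dwarf chickens on 3 of 3 arrays, for which the exact sign-flip permutation test gives a two-sided p = 0.25, the smallest it can give. The exact permutation test of the 3 dwarf against the 3 normal signals gave a two-sided p = 0.1, also the smallest possible. Leaving out array 1 gave an unadjusted p of 0.00687 from limma, leaving out array 2 gave 0.14, and leaving out array 3 gave 0.0808. The mean log2 ratio in these fits was 0.81, 0.53 and 0.48. Each fit had 2 arrays and its own estimate of the spread, so these p values do not measure what an array contributed.

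For miR-30a-5p the log2 ratios were -0.053, 0.95 and 0.76 on arrays 1, 2 and 3. The mean was 0.55 (standard error 0.24, 95% interval -0.010 to 1.12, adjusted p = 0.707 from limma), and the SD between arrays, 0.53, was nearly as large as the mean. Without array 1 the mean was 0.86, and without array 2 it was 0.35. The exact sign-flip permutation test gave a two-sided p = 0.5.

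For miR-30d the log2 ratios were -0.039, 0.49 and 0.41, with a mean of 0.29 (standard error 0.19, 95% interval -0.16 to 0.74, adjusted p = 0.825 from limma). Without array 1 the mean was 0.45, and without array 2 it was 0.18. For miR-30c they were 0.014, 0.20 and 0.00058, with a mean of 0.073 (standard error 0.17, 95% interval -0.33 to 0.48, adjusted p = 0.969 from limma). The SD of the 3 miR-30c ratios, 0.11, was the seventh smallest of the 85 miRNAs, whose median SD was 0.28. The interval of miR-30c still holds a fall or a rise of the size seen for miR-30d.

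**Figure D2:**
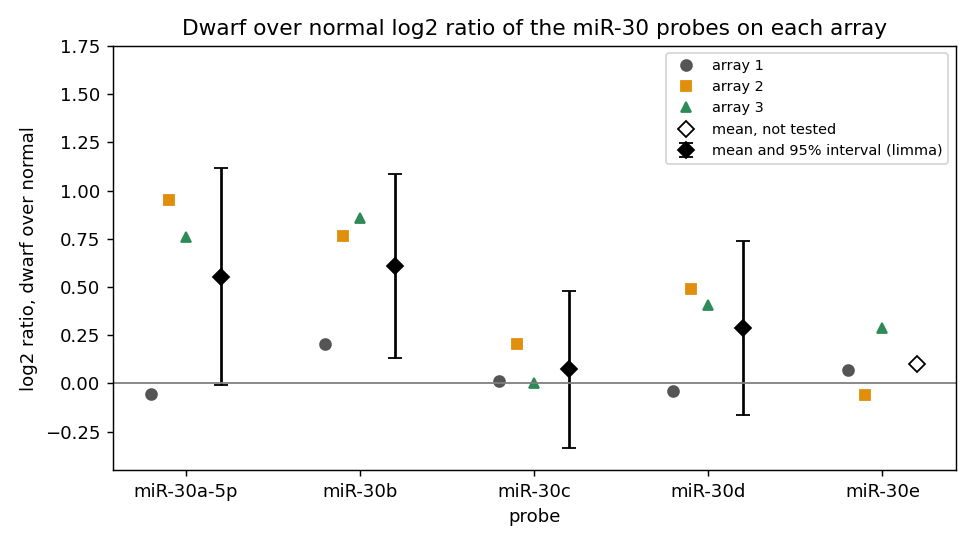
Log2 ratio of dwarf over normal (y axis) for each miR-30 probe (x axis) on the 3 arrays, beside the mean and its 95% interval from limma (black); miR-30e was not tested (open diamond). The interval of miR-30b, 0.13 to 1.08, is the only one that leaves out 0, and the values of array 1 are the lowest for miR-30a-5p, miR-30b and miR-30d.

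The 4 members that passed the detection standard had mean log2 ratios above 0, as did 54 of all 85 miRNAs tested (63.5%), and their median was 0.42 against 0.048 over the 85. The ratio was above 0 on all 3 arrays for miR-30b and miR-30c (18 of 85, 21.2%), and below 0 on all 3 arrays for no member (7 of 85, 8.24%). The dwarf pools lay wholly above the normal pools for miR-30b and miR-30d (13 of 85, 15.3%). No tested miRNA had all dwarf pools below all normal pools. All 85 passed the detection standard in dwarf chickens and 74 of them in normal chickens. Some thus entered these counts only through their dwarf signal, and none only through their normal signal. These counts describe the family and are no test of it, because its members share arrays and sequence.

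**Figure D3:**
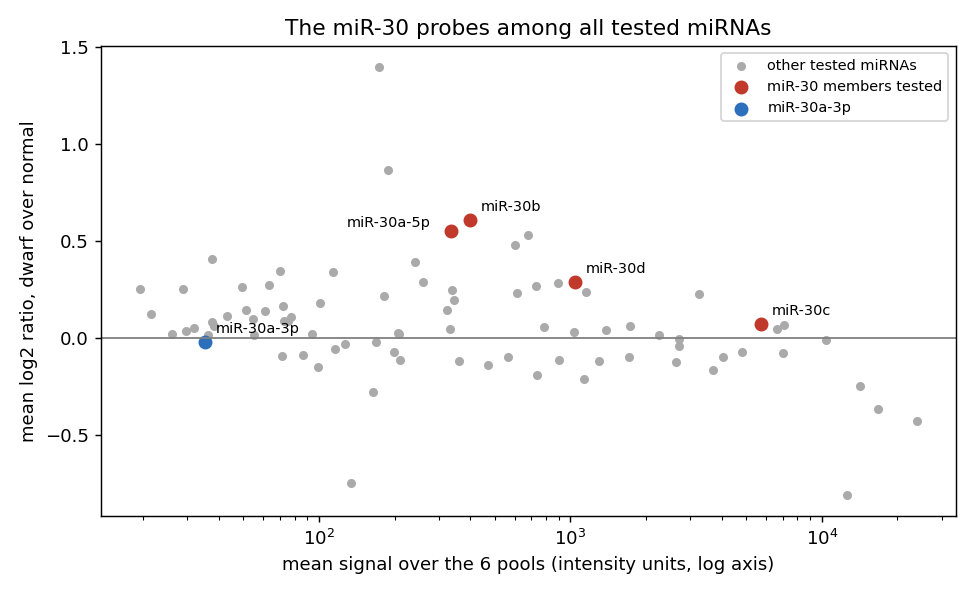
Mean log2 ratio of dwarf over normal (y axis) against the mean signal over the 6 pools (x axis, log scale) for the 85 tested miRNAs, with the 4 tested miR-30 members in red and miR-30a-3p in blue. MiR-30b lies at 0.61, miR-30a-5p at 0.55 and miR-30d at 0.29, while miR-30c lies at 0.073, near the median of 0.048.

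With loess, the log2 ratios of the members differed. The limma intervals of miR-30b (0.13 to 1.08) and miR-30c (-0.33 to 0.48) overlapped, which is no test of a difference within arrays. MiR-30b exceeded miR-30c in log2 ratio by 0.19, 0.56 and 0.85 on arrays 1, 2 and 3, and exceeded miR-30d by 0.24, 0.27 and 0.45. MiR-30a-5p exceeded miR-30d by 0.46 and 0.35 on arrays 2 and 3 but not on array 1, where the difference was -0.014. The mean of miR-30b and miR-30c less that of miR-30a-5p and miR-30d took the values 0.16, -0.24 and -0.16 in array order. MiR-30b and miR-30d, whose genes are neighbours, differed by 0.32 in the mean. Whether likeness in sequence or neighbouring genes had a part in these differences was not tested. With 3 arrays the exact sign-flip permutation test of such a difference cannot give a two-sided p under 0.25, and no p is given. The gap between miR-30b and miR-30c also depended on the processing. With median centring in place of loess, miR-30b was below miR-30c on array 1, at 0.28 against 0.63. In that setting miR-30b was above miR-30c on arrays 2 and 3, at 1.47 against 0.71 and 1.62 against 1.44.

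Array 1 had the lowest ratio for miR-30a-5p, miR-30b and miR-30d but not for miR-30c, whose lowest was on array 3. Of the 85 miRNAs tested, 34 (40%) also had their lowest ratio on array 1, so this was not particular to the family. The mean log2 ratio of the 4 detected members took the values 0.032, 0.60 and 0.51 in array order, while the median of the 85 miRNAs was 0.055, 0.068 and 0.072. The normal pool of array 1 was read in Cy3, where the median spot of miR-30a-5p and miR-30b stood at 1.45 and 1.38 times the background, against 5.05 and 5.91 times in the normal pool of array 2, read in Cy5. The CV of the 6 signal spots in the normal pool of array 1 was 37.8% for miR-30a-5p and 30.6% for miR-30b. In the dwarf pool of that array, read in Cy5, it was 25.4% and 30.4%. The median over the 4 members and 6 pools was 14.5%. The normal pool of array 3, also in Cy3, stood at 1.54 and 1.77 times the background, and there the ratios of both miRNAs were high. On arrays 2 and 3 the dwarf pools carried opposite dyes, and the turned ratios were 0.95 and 0.76 for miR-30a-5p, 0.76 and 0.86 for miR-30b, and 0.49 and 0.41 for miR-30d. The endothelial miR-126 was also low on array 1, with log2 ratios of -0.73, 0.26 and 1.15 on arrays 1, 2 and 3. It was among the 34 of 85 miRNAs with their lowest ratio there. Its SD between arrays was 0.94, against a median of 0.28 over the 85. The part of spot noise, or of vessel content, in the low ratios of array 1 was not tested.

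The spots of an array varied less than the arrays for miR-30a-5p, miR-30b and miR-30d. For miR-30c they did not, since its spot SD on array 3 was 0.16 and its SD between arrays 0.11. The SD of the 6 spot log2 ratios was between 0.062 and 0.20 for the 4 members on the 3 arrays. Each probe had 3 spots in the upper and 3 in the lower rows, and the scanned intensity was higher in the lower rows in 24 of 24 combinations of member and pool. In the ratio this largely cancelled, with a median gap of 0.048 between the lower and the upper spots. The largest gap, 0.23, was that of miR-30a-5p on array 1, where the upper spots gave 0.061 and the lower ones -0.17, so its sign on that array was not settled.

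The ratios rested on a large correction for dye. Before loess the log2 ratio of miR-30c was -1.63, 1.44 and -0.10 on arrays 1, 2 and 3, and that of miR-30b was -1.98, 2.20 and 0.081, the sign following the dye on arrays 1 and 2. Loess moved miR-30b by 2.18, -1.44 and 0.77. With the median of each array set to 0 in place of loess, the means were 1.12 for miR-30b, 1.04 for miR-30a-5p, 0.93 for miR-30c and 0.91 for miR-30d, but the median of the 85 miRNAs then rose to 0.51. Relative to the median of the 85, miR-30b was at 0.61 with median centring and 0.56 with loess, and miR-30a-5p at 0.53 and 0.50. MiR-30d was at 0.40 and 0.24, and miR-30c at 0.42 and 0.024, so that the value of miR-30c moved most.

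**Figure D4:**
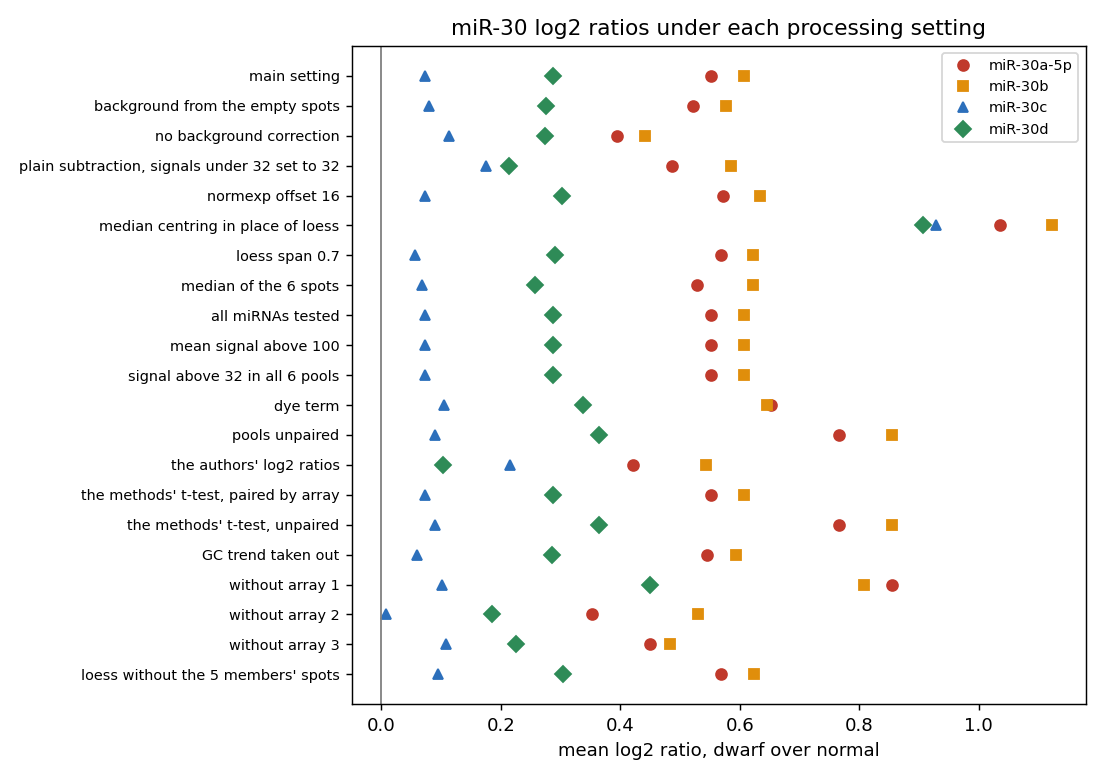
Mean log2 ratio of dwarf over normal (x axis) of the 4 detected miR-30 members under the main setting and 20 alternatives (y axis). All values are above 0, from 0.0071 for miR-30c without array 2 to 1.12 for miR-30b with median centring, and miR-30b lies above miR-30c and miR-30d in each setting.

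The authors' own log2 ratios of the same arrays, turned to dwarf over normal where they tracked the ratios of the scanned spots (correlations of 0.83, 0.88 and 0.89 over 85 miRNAs), gave a like picture for miR-30b, at 0.37, 0.52 and 0.74 on arrays 1, 2 and 3. For miR-30a-5p they were -0.077, 0.75 and 0.59, for miR-30c 0.036, 0.39 and 0.22, and for miR-30d -0.084, 0.11 and 0.28. In these values miR-30c was above miR-30d in the mean, at 0.21 against 0.10. The order of these 2 members therefore depended on the processing.

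The opposite arm of the miR-30a precursor, miR-30a-3p, was the only other miR-30 arm with a probe on the array. It is usually the less abundant strand. Its signal was 23.6, 33.3 and 56.5 in the dwarf pools and 33.3, 31.5 and 33.9 in the normal pools, all near the detection standard. Its log2 ratios were 0.031, -0.24 and 0.15, with a mean of -0.021 (standard error 0.18, adjusted p = 0.969 from limma), and the groups overlapped. On array 2, where miR-30a-5p was at 0.95, the opposite arm was at -0.24, although its dwarf signal was the higher there. On array 1 its log2 ratio was above 0 and its dwarf signal the lower. Its direction on both arrays thus depended on the measure.

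Among 61 miRNAs with a signal above 32 in all 6 pools, the profiles nearest to the mean of the 5 members were those of miR-1629, let-7d and miR-181b. The root mean square difference of their centred log2 signals over 6 pools was 0.22, 0.31 and 0.31. Their mean log2 ratios were 0.34, 0.16 and 0.39, and none passed the threshold (adjusted p from 0.707 to 0.969, limma). The pools of miR-181b were at 314, 319 and 260 in the dwarf and 217, 167 and 166 in the normal strain. They did not overlap, as for 13 of the 85 miRNAs tested (15.3%). These miRNAs were picked for likeness to the mean profile on the same 6 pool signals, so their direction is no separate evidence. That mean profile includes miR-30e, whose signals were not above background (a signal under 1 was set to 1). With the 4 detected members alone, a choice made after the values were seen, the nearest profiles were those of miR-15b (0.21), miR-181b (0.23) and miR-99a (0.24), so only miR-181b was named by both. The 4 members themselves lay up to 0.32 from their own mean profile.

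The RNA carried the miRNAs of skeletal muscle. All 5 defining muscle miRNAs (miR-1a, miR-133a, miR-133b, miR-206 and miR-499) were detected, with summed signals of 22125 to 43577 in the dwarf and 31237 to 43730 in the normal pools. Of the 8 muscle miRNAs listed for comparison, 6 were detected, 1 had a mean ratio above 0, and their median log2 ratio was -0.14 with 0 past the threshold. The endothelial miR-126 was at 2406 to 5169 in the dwarf and 2214 to 4021 in the normal pools, and the liver miRNA miR-122 at 3.35 to 179 and 129 to 248. The erythroid list (1 of 2 detected) summed to 42.2 to 120 in the dwarf and 27.2 to 62.6 in the normal pools, and the leukocyte list (1 of 4) to 51.1 to 53.7 and 35.5 to 74.1. The neuronal (0 of 3) and pancreatic (0 of 1) miRNAs were not detected. The part of other cells in the miR-30 values was not tested.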

How the data were processed

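Spot intensities in Cy3 and Cy5 were deposited by the authors from custom arrays with probes for miRBase miRNAs, not background-subtracted or normalized, and a table of log2 ratios made by the authors after background subtraction and LOWESS, used here only as an alternative. They were neither rescaled nor recentred (medians over 542 miRNAs 0.15, 0.018 and 0.15). The files name no genome build, and the RefSeq table served only for gene names and neighbours.

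R 4.3.3 and limma 3.58.1 were used. A robust loess surface over rows and columns (span 0.3) through the miRNA spots estimated the background of each array and dye, with medians of 830, 304 and 698 in Cy3 and 51.4, 44.3 and 53.2 in Cy5. For ratios, normexp (offset 50) on all spots and loess (span 0.3) on the miRNA spots were applied within arrays, 6 spots were averaged on the log2 scale, and array 2 was turned. Signals are intensities less the background, from which the loess curve of the ratios was removed in equal parts from both dyes, with arrays scaled to a common median. MiRNAs above 32 in the mean of either strain were tested by limma (lmFit and eBayes) with Benjamini-Hochberg adjustment and a threshold of 0.05. Each array is 1 replicate, and precision is limited by there being 3. The steps were also run on simulated arrays. These gave each dye a fixed factor, so that run is no check of the dye correction the real arrays needed. The text names the 5 members, the opposite arms of their precursors, and the 3 miRNAs with the profile nearest to the mean of the 5. A mean of the 4 detected members was added after seeing the data. The members, lists and tests were chosen with earlier results of these data known. Alternatives in background, normalization, spot summary, filter, dye, pairing, test, GC content and arrays left out were tried. The loess fit without the members' spots was chosen after seeing the data.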

Additional observations from a re-analysis of the deposited data

How the results depend on the processing

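All 80 log2 ratios under the 20 alternatives to the 4 tested members kept their direction, and none reached an adjusted p under 0.05. Over the alternatives the adjusted p ranged from 0.178 to 0.932 for miR-30b, 0.178 to 0.949 for miR-30a-5p, 0.178 to 0.999 for miR-30c and 0.178 to 0.992 for miR-30d. Alternatives in filter or test alone kept the ratio by construction. With single arrays left out, the log2 ratio was 0.48 to 0.81 for miR-30b, 0.35 to 0.86 for miR-30a-5p, 0.0071 to 0.11 for miR-30c and 0.18 to 0.45 for miR-30d. The number of members at an unadjusted p under 0.05 was 1 and was not stable. It was 4 with median centring, 2 with an offset of 16, with a signal above 32 in all 6 pools, with pools unpaired and with the GC trend taken out, and 0 with a mean signal above 100, with a dye term, with the authors' log2 ratios and with the methods' t-test, paired or unpaired. With single arrays left out it was 0 to 2. With pools unpaired (no replicate block), the log2 ratio was 0.85 for miR-30b (adjusted p = 0.411, limma), 0.77 for miR-30a-5p, 0.36 for miR-30d and 0.090 for miR-30c. The median of the 85 miRNAs was then 0.18, against 0.048 in the main setting. Over all miRNAs tested, 2 were called with an offset of 16, 1 with a mean signal above 100, 3 with the GC trend taken out, and 1, 0 and 3 without arrays 1, 2 and 3, with no miR-30 member among them. The loess fit without the members' own spots, chosen after seeing the data, gave 0.62 for miR-30b and 0.57 for miR-30a-5p, both then at an unadjusted p under 0.05 (limma, 0.0181 and 0.0494). With the background from the empty spots the mean normal signal of miR-30e rose to 54.8, so that 5 members and not 4 were detected. The causes were not tested. For miR-30a-5p and miR-30b the median Cy3 spot on arrays 1 and 3 stood at 1.38 to 1.77 times the background. The part of this low height over background in the precision was not tested.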
